A study of Mus musculus with 2 samples.

Results

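The genes described here encode the nuclear-encoded subunits of respiratory complexes II, III, IV and V. They were taken by symbol from the deposited gene count table: 42 of its 24532 genes, made up of 4 genes of complex II, 9 of complex III, 12 of complex IV, 15 of complex V, and a pair (Atp5s and Atp5sl) that the symbol rule takes in by name although their products are not subunits. Of the 42 genes, 41 reached the expression minimum used below, and the gene that did not was Cox7a1. No gene in the table carries a mitochondrial symbol prefix, so the subunits encoded by mitochondrial DNA were not analysed here.

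Complex II oxidises succinate and passes its electrons to ubiquinone, complex III passes them on to cytochrome c, and complex IV hands them to oxygen. Complexes III and IV pump protons across the inner mitochondrial membrane, and complex V, the ATP synthase, lets them flow back through a rotary motor that makes ATP. Myofibroblasts, the contractile and collagen-secreting cells of an injured heart, make ATP by this chain as well as by glycolysis.

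RNA was sequenced from myofibroblasts that had been isolated from C57BL/6 mouse hearts 3 days after infarction, grown in serum-containing medium and transfected with 12.5 nM siRNA for 72 hours. One culture received an siRNA against Bcat1 (siBcat1) and the other a control siRNA (siControl). Bcat1 encodes the cytosolic aminotransferase of leucine, isoleucine and valine. Each group is 1 library with 1 siRNA, and the labels do not say how many hearts went into it, so the spread between replicates is unknown and the comparison carries neither a test nor a p-value. The 95% intervals in brackets are exact (Clopper-Pearson) intervals of counting error only, and since reads amplified by PCR are not independent molecules, the true intervals are wider.

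The siBcat1 library held 104581819 counts and the siControl library 127309329. Bcat1 itself had 99 counts with siBcat1 and 8891 with siControl. Counts are also given as CPM, counts brought to a common library size with TMM factors (which set the bulk of genes level), and a fold is the ratio of siBcat1 to siControl in CPM. Levels of different genes are compared only as TPM, the authors' deposited values per transcript length. The expression minimum was 5 CPM as the mean of the pair of libraries. It was reached by 9935 genes, whose median log2 fold was -0.06. In the deposited TPM values of the same genes the median was -0.57, a shift of -0.50, and with upper-quartile factors the median shifted by 0.13. The sign of a small fold therefore depends on the scale, and folds are read below against the median of all genes.

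Cell type markers were read in the same libraries. Of 12 fibroblast and myofibroblast markers, 11 passed the minimum, and the list summed to 15183 CPM with siBcat1 and 30760 CPM with siControl, with 5 of the 11 at least 1.5-fold lower, where 25.6% of all genes were, and 1 higher. Most of that sum came from the collagen genes Col1a1, with 4345 CPM with siBcat1 and 11058 CPM with siControl, Col1a2, with 3919 CPM with siBcat1 and 9535 CPM with siControl, and Col3a1, with 2412 CPM with siBcat1 and 4638 CPM with siControl. The 5 lower genes were these collagen genes, Postn (log2 fold -1.19) and Pdgfrb (-1.47). Acta2, Dcn and Tcf21 had log2 folds of -0.11, -0.15 and -0.09, and Pdgfra and Lum had -0.43 and -0.35. The higher gene was Thy1 with 0.63. Fap, below the minimum, had -1.57. After the length adjustment described further on, 5 of the 11 were again at least 1.5-fold lower, where 14.1% of all genes were. Tcf21 with -0.63 was then among these, and Col3a1 with -0.29 was not. Thy1 had 0.32 and was within 1.5-fold. Of 10 cardiomyocyte markers, 7 were at 0 in each library, among them Myh6 and Mb. The summed level of the list, nearly all of it Tnnt2, was 10.5 CPM with siBcat1 and 46.4 CPM with siControl. Of 10 macrophage markers, 5 were at 0 in each library, and their sum, mostly Lyz2, was 28.8 CPM with siBcat1 and 10.3 CPM with siControl. Endothelial markers summed to 52.6 CPM with siBcat1 and 52.4 CPM with siControl, and smooth muscle and pericyte markers to 151 CPM with siBcat1 and 242 CPM with siControl. The part of other cells in the folds below was not tested. In bulk RNA, fewer cells of a type and less RNA per cell cannot be told apart.

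The 42 genes were strongly expressed for so small a group. Together they took 1.98% of all TPM with siBcat1 and 1.78% with siControl. The summed TPM of complex IV subunits was 7069 with siBcat1 and 5937 with siControl, and that of complex V was 8931 with siBcat1 and 8364 with siControl. Complex III subunits summed to 2983 TPM with siBcat1 and 2598 TPM with siControl. Complex II was the exception in direction, with 774 TPM in siBcat1 and 862 TPM in siControl. The highest single levels were those of Cox4i1 with siBcat1 (1228 TPM) and of Atp5b with siControl (1525 TPM).

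**Figure D1:**
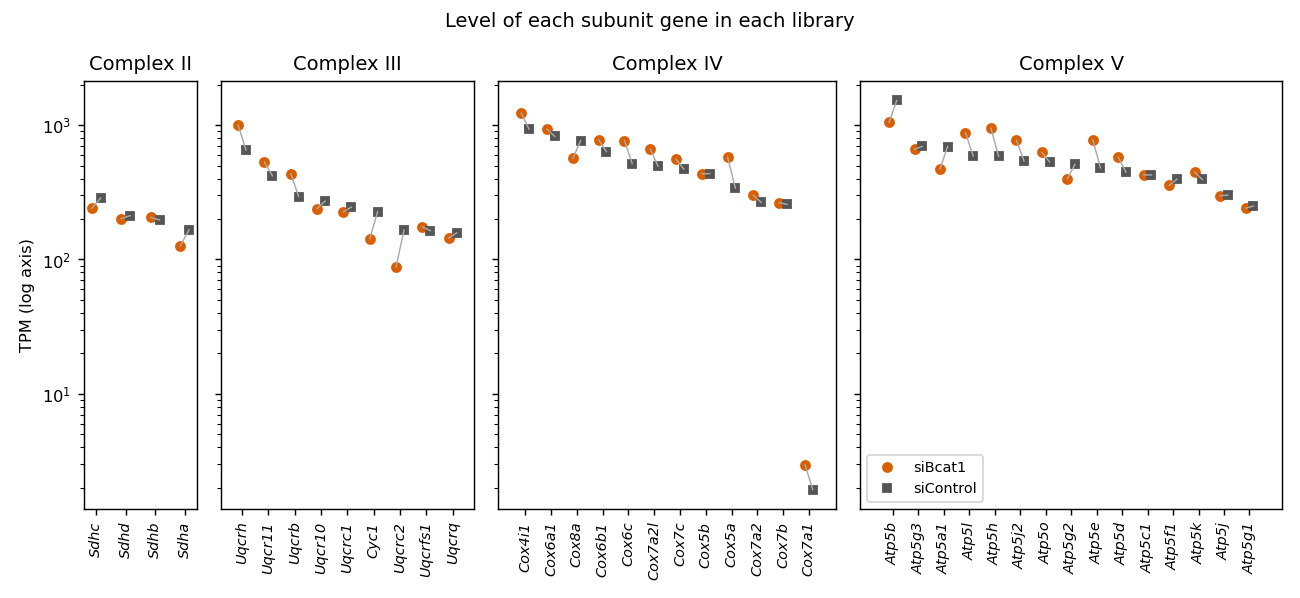
TPM of each subunit gene (log axis; Atp5s and Atp5sl not drawn) in the siBcat1 library (circles) and the siControl library (squares), with a line joining the same gene, ordered within each complex by the siControl level. Uqcrc2, Cyc1, Atp5b and Atp5a1 lie lower with siBcat1, while Uqcrh, Cox5a, Atp5h and Atp5e lie higher, and Cox7a1 lies far below all others in both libraries.

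On the scaled counts, the subunit genes lay above the bulk of genes as a group and did so unevenly. The median log2 fold of the 41 genes was 0.57, against -0.06 for all genes, and 39 of the 41 lay above the all-gene median. In the deposited TPM values the median of the 41 was 0.06 against -0.57, and 18 of the 41 had a negative log2 TPM ratio. For nearly all members the TPM ratio differed from the count fold by about the shift of -0.50. The distance of 0.63 was therefore the same on both scales by construction, and the TPM values are no separate support. At least 1.5-fold higher were 20 of the 41, where 17.6% of all genes were, and at least 1.5-fold lower were none, where 25.6% of all genes were. At least 2-fold higher were 9 of the 41, against 5.58% of all genes, and at least 2-fold lower were none, against 13% of all genes. By complex, the median log2 fold was 0.34 for complex II, 0.39 for complex III, 0.75 for complex IV and 0.51 for complex V.

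**Figure D2:**
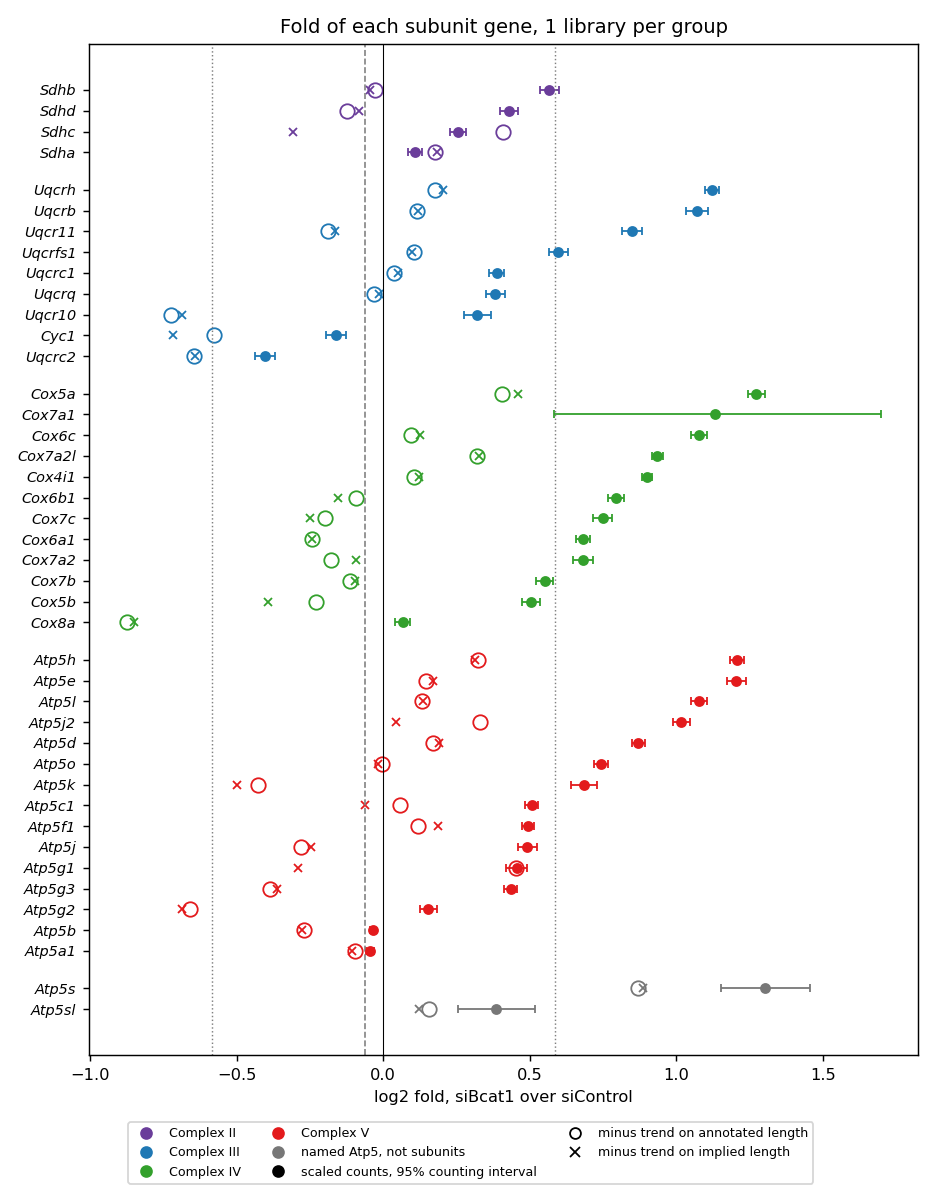
Log2 fold of siBcat1 over siControl for each gene (filled circles, with 95% counting intervals) and the same fold after subtraction of the all-gene trend on annotated transcript length (open circles) or on the length that counts and TPM imply (crosses). Dotted lines mark 1.5-fold and the dashed line the median of all genes. Filled circles lie mostly right of 0, and open circles lie on both sides of it, with Cox8a, Uqcr10, Atp5g2 and Uqcrc2 at least 1.5-fold below the trend.

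On scaled counts the complex II genes had the lowest median of the 4 complexes, and none passed 1.5-fold. In TPM the median log2 ratio was -0.16 for complex II. Sdhb, the iron-sulfur subunit, had 15295 counts with siBcat1 and 13395 with siControl, a log2 fold of 0.57 [0.53 to 0.60]. Sdhd, one of the cytochrome b membrane anchors, had 17914 counts with siBcat1 and 17264 with siControl, a log2 fold of 0.43. The other anchor, Sdhc, had 19718 counts with siBcat1 and 21427 with siControl, a log2 fold of 0.26. All of these lay within 1.5-fold. Sdha, the flavoprotein that binds succinate, had 24966 counts with siBcat1 and 30056 with siControl and the lowest log2 fold of the complex, 0.11 [0.08 to 0.13]. On the TPM scale Sdha had 126 TPM with siBcat1 and 166 TPM with siControl. All 4 genes stood above the all-gene median on both scales.

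Complex III genes were the most divided, spanning 1.52 on the log2 scale. Small subunits were at the top. Uqcrh, the hinge protein next to cytochrome c1, had 37857 counts with siBcat1 and 22585 with siControl, a log2 fold of 1.12 [1.10 to 1.14]. Uqcrb, a small subunit near the quinone site, had 15167 counts with siBcat1 and 9372 with siControl, a log2 fold of 1.07 [1.03 to 1.11]. Uqcr11 followed with 16074 counts with siBcat1 and 11591 with siControl, a log2 fold of 0.85 [0.81 to 0.88]. Of the 5 small subunit genes, 3 were thus at least 1.5-fold higher, and Uqcrq and Uqcr10 lay within 1.5-fold. The share at least 1.5-fold higher was 17.6% of all genes and 71.7% of all genes with transcripts under 1000 bases. Uqcrq had 15245 counts with siBcat1 and 15168 with siControl, a log2 fold of 0.38. Uqcr10 had 7310 counts with siBcat1 and 7595 with siControl, a log2 fold of 0.32 [0.27 to 0.37]. In TPM both were lower with siBcat1.

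The other complex III genes encode its electron-carrying and core subunits, and Cyc1 and Uqcrc2 among them were the lowest of the complex. Uqcrfs1, the Rieske iron-sulfur protein, had 15896 counts with siBcat1 and 13631 with siControl, a log2 fold of 0.60 [0.56 to 0.63]. Cyc1, which encodes cytochrome c1, had 11827 counts with siBcat1 and 17156 with siControl, a log2 fold of -0.16 [-0.20 to -0.13]. Uqcrc2, one of the core proteins, had 11517 counts with siBcat1 and 19754 with siControl, a log2 fold of -0.40 [-0.44 to -0.37], the lowest of all 42 genes. Its fellow core protein gene Uqcrc1 did not share this. Uqcrc1 had 25922 counts with siBcat1 and 25720 with siControl, a log2 fold of 0.39 [0.36 to 0.41]. Cyc1 and Uqcrc2 are the only members that lay below the all-gene median, on scaled counts and on TPM alike. Uqcrc2 had 88.3 TPM with siBcat1 and 166 TPM with siControl, so Uqcrc1 stood at 2.56 times its level with siBcat1 and at 1.48 times with siControl.

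Complex IV genes had the highest median of the 4 complexes on scaled counts and the lowest, -0.11, after the length adjustment described further on. Of the 11 past the minimum, 8 were at least 1.5-fold higher, where 17.6% of all genes and 71.7% of all genes with transcripts under 1000 bases were. The catalytic core of this complex comes from mitochondrial DNA, and the genes here encode the subunits around it. Cox5a, which sits on the matrix side, had 27716 counts with siBcat1 and 14890 with siControl, a log2 fold of 1.27 [1.24 to 1.30]. Cox6c had 26728 counts with siBcat1 and 16437 with siControl, a log2 fold of 1.08 [1.05 to 1.10]. Cox4i1, the largest nuclear-encoded subunit, had 63154 counts with siBcat1 and 43893 with siControl, a log2 fold of 0.90 [0.88 to 0.92]. These 3 genes also had higher TPM with siBcat1. Cox6b1, Cox7c, Cox6a1 and Cox7a2 lay between 0.68 and 0.79 on the log2 scale.

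At the lower end of complex IV stood Cox7b, Cox5b and Cox8a, none of them past 1.5-fold. Cox7b had 18389 counts with siBcat1 and 16292 with siControl, a log2 fold of 0.55 [0.52 to 0.58]. Cox5b, a zinc-binding subunit on the matrix side, had 17137 counts with siBcat1 and 15688 with siControl, a log2 fold of 0.50 [0.47 to 0.53]. Cox8a, a small subunit with a single membrane helix, had 21322 counts with siBcat1 and 26428 with siControl. Its log2 fold of 0.07 [0.04 to 0.09] was -0.03 when scaled by library totals and -0.44 as a TPM ratio, with 564 TPM in siBcat1 and 765 TPM in siControl. Cox5a stood at 1.02 times the TPM of Cox8a with siBcat1 and at 0.444 times with siControl, so the order of these subunit genes within the library was turned.

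The COX7A family holds a heart and muscle isoform (Cox7a1), a widely expressed isoform (Cox7a2) and a relative (Cox7a2l) known as a supercomplex factor, of which C57BL/6 mice carry an allele for a shortened protein. Cox7a1 was close to silent, with 76 counts with siBcat1 and 45 with siControl, or 0.750 CPM with siBcat1 and 0.342 CPM with siControl. Its log2 fold of 1.13 [0.58 to 1.70] rests on these few counts. Cox7a2l had 49856 counts with siBcat1 and 33820 with siControl, a log2 fold of 0.94 [0.92 to 0.96], and Cox7a2 had 15686 counts with siBcat1 and 12689 with siControl, a log2 fold of 0.68 [0.65 to 0.71]. Of the family's TPM, Cox7a2l held 68.7% with siBcat1 and 64.9% with siControl, Cox7a2 held 30.99% with siBcat1 and 34.9% with siControl, and Cox7a1 held 0.307% with siBcat1 and 0.255% with siControl.

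Other tissue isoforms of complex IV were likewise low. The striated muscle isoform genes Cox6a2 and Cox8b had 26 and 8 counts with siBcat1, and 28 and 0 with siControl. A count of 0 in siControl allows up to 0.0228 CPM (3 counts). Cox7b2 and Cox8c were at 0 in both libraries, and Cox6b2, the testis isoform, had 85 counts with siBcat1 and 113 with siControl. Cox4i2, an isoform known to respond to low oxygen in lung, had 208 counts with siBcat1 and 141 with siControl. Ndufa4l2, a hypoxia-responsive relative of Ndufa4, had 331 counts with siBcat1 and 170 with siControl. All of these lay below the minimum. Only Ndufa4, whose product is a subunit of complex IV despite its name, passed it, with 34256 counts with siBcat1 and 24483 with siControl and a log2 fold of 0.86.

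In the ATP synthase the folds are given by the place of each subunit in the machine. The folds of the stalk genes and of the small membrane subunit genes overlapped. Those of the subunit c genes and of the alpha and beta genes lay below them on scaled counts. After the length adjustment described further on, this order did not hold throughout. The F1 head makes ATP in a hexamer of alpha and beta subunits, and both of their genes were level between libraries. Atp5a1 (alpha) had 79732 counts with siBcat1 and 106647 with siControl, a log2 fold of -0.04 [-0.06 to -0.03]. Atp5b (beta) had 136415 counts with siBcat1 and 181517 with siControl, a log2 fold of -0.04 [-0.05 to -0.03]. Both signs turned with upper-quartile factors. In TPM the pair was lower with siBcat1: Atp5b had 1047 TPM with siBcat1 and 1525 TPM with siControl, and Atp5a1 had 473 TPM with siBcat1 and 693 TPM with siControl.

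Of the 3 central stalk genes of F1, whose products turn inside that hexamer, 2 were at least 1.5-fold higher. Of all genes 17.6% were, and of all genes with transcripts under 1000 bases 71.7%. Atp5e (epsilon) had 22343 counts with siBcat1 and 12578 with siControl, a log2 fold of 1.20 [1.17 to 1.24]. Atp5d (delta) had a log2 fold of 0.87 [0.85 to 0.89] and Atp5c1 (gamma) of 0.51 [0.49 to 0.53], and Atp5c1 lay within 1.5-fold. Relative to Atp5b in the same library, Atp5e stood at 0.743 times its TPM with siBcat1 and at 0.314 times with siControl.

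Of the 4 genes of the peripheral stalk, which holds the head still, 2 were at least 1.5-fold higher. The share was 17.6% of all genes and 71.7% of all genes with transcripts under 1000 bases, as those of both higher genes are. Atp5h (subunit d) had 37847 counts with siBcat1 and 21285 with siControl, a log2 fold of 1.21 [1.18 to 1.23], the highest of complex V. Atp5o (the oligomycin sensitivity protein) had 0.74 [0.72 to 0.77], while Atp5f1 (subunit b) and Atp5j (factor 6) each had 0.49 and lay within 1.5-fold. Among the small Fo genes, Atp5l (subunit g) had 31248 counts with siBcat1 and 19217 with siControl, a log2 fold of 1.08 [1.05 to 1.10]. Atp5j2 (subunit f) had 25478 counts with siBcat1 and 16332 with siControl, a log2 fold of 1.02 [0.99 to 1.05]. Atp5k (subunit e) had a log2 fold of 0.69 [0.64 to 0.73]. All 3 of these membrane subunit genes were thus at least 1.5-fold higher. Their transcripts are under 1000 bases, and 71.7% of all such genes were.

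Subunit c, of which the proton-driven ring is built, comes from 3 genes that encode the same mature protein behind different import signals. None of them reached 1.5-fold. Atp5g1 had 13384 counts with siBcat1 and 12663 with siControl, a log2 fold of 0.46 [0.42 to 0.49]. Atp5g3 had 32821 counts with siBcat1 and 31498 with siControl, a log2 fold of 0.44 [0.41 to 0.46]. Atp5g2 had 17926 counts with siBcat1 and 20912 with siControl, a log2 fold of 0.15 [0.12 to 0.18]. Atp5g3 was the main source in both libraries, with 50.8% of the 3 genes' TPM with siBcat1 and 47.7% with siControl. The share of Atp5g2 was 30.7% with siBcat1 and 35.1% with siControl, and that of Atp5g1 was 18.5% with siBcat1 and 17.2% with siControl.

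The pair that shares only the Atp5 name was expressed far lower. Atp5s, listed as Dmac2l in the RefSeq table and known from cattle and humans as coupling factor B, had 1042 counts with siBcat1 and 548 with siControl. Its log2 fold of 1.30 [1.15 to 1.46] was the highest of all 42 genes, and since it stood at 10.3 CPM with siBcat1 and 4.17 CPM with siControl it passed the minimum through the siBcat1 library. Atp5sl, listed as Dmac2 and known in humans as an assembly factor of complex I, had 954 counts with siBcat1 and 947 with siControl, a log2 fold of 0.39 [0.26 to 0.52]. Leaving both out kept the median of the group at 0.57 with 19 of 39 genes at least 1.5-fold higher.

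Transcript length ran with these folds. Over the 41 genes Spearman's rho between the log2 fold and the annotated length was -0.57, and Pearson's r with log2 length was -0.56. Over all genes rho was -0.66. Genes in 1 pair of libraries share its depth and preparation, so these correlations are descriptions. The members are short, with a median annotated transcript of 865 bases against 2973 for all genes. Among the 23 members under 1000 bases the median log2 fold was 0.79, and among all 605 such genes it was 0.82. At least 1.5-fold higher were 17 of these 23 members, where 71.7% of all short genes were. The short members thus lay where short transcripts in general lay. The 18 longer members had a median of 0.41, and 3 of them were at least 1.5-fold higher, where 13.9% of all longer genes were.

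**Figure D3:**
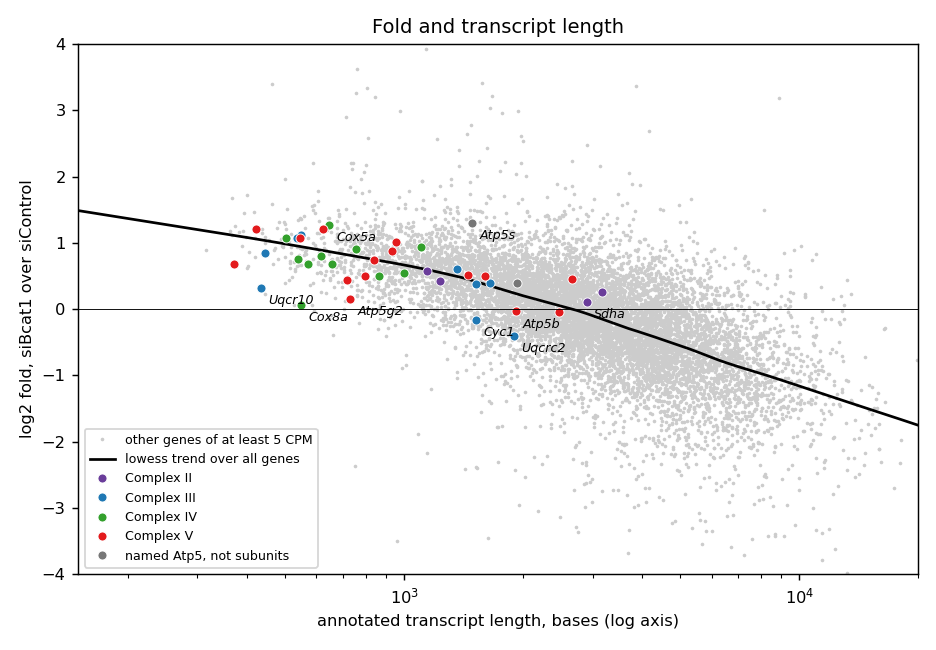
Log2 fold of siBcat1 over siControl against annotated transcript length (log axis) for all genes of at least 5 CPM (grey, axis range limited), with the subunit genes in colour by complex and the lowess trend of all genes as a line. The coloured points follow the line, with Uqcrc2, Cyc1, Cox8a, Uqcr10 and Atp5g2 below it and Atp5s above it.

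Once the trend of all genes on length was subtracted (length-adjusted), the group no longer lay above the bulk. The length-adjusted median of the 41 genes was -0.01, with 20 above 0 and 21 below, and by complex it was 0.07 for II, -0.03 for III, -0.11 for IV and 0.06 for V. At least 1.5-fold above the trend was 1 gene, Atp5s, where 12.8% of all genes were. At least 1.5-fold below it were 4, Cox8a with -0.87, Uqcr10 with -0.73, Atp5g2 with -0.66 and Uqcrc2 with -0.64, where 14.1% of all genes were. Cyc1, with -0.58, lay just inside. Highest among true subunits were Atp5g1 with 0.45, Sdhc with 0.41 and Cox5a with 0.40. The annotated length of Atp5g1 and Sdhc was more than 2 times the length that counts and TPM imply, 2656 against 801 bases for Atp5g1 and 3171 against 1179 bases for Sdhc. With the implied length their adjusted values were -0.29 and -0.31, of the opposite sign, while Cox5a kept 0.46. With that length Cyc1 had -0.72 and was the fifth gene at least 1.5-fold below the trend.

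The spread of log2 folds within a complex, from its lowest to its highest gene, was 0.53 after length adjustment and 0.46 before in complex II, 0.90 and 1.52 in complex III and 1.28 and 1.21 in complex IV. In complex V the values ran between -0.66 and 0.45 after adjustment and between -0.04 and 1.21 before. Uqcrh stood 1.52 above Uqcrc2 on the log2 scale and 0.82 above it after length adjustment. The core protein genes Uqcrc1 and Uqcrc2, with transcripts of 1653 and 1896 bases, differed by 0.79 before and 0.68 after. Atp5e stood 1.24 above Atp5b before and 0.42 after, and Atp5a1 and Atp5b, with adjusted values of -0.10 and -0.27, stayed below the central stalk genes, which had 0.06 to 0.17. The peripheral stalk genes then had -0.28 to 0.32, the small membrane subunit genes -0.43 to 0.33 and the subunit c genes -0.66 to 0.45. These ranges overlapped with each other and held the alpha and beta values. The value of 0.45 is that of Atp5g1, which had -0.29 with the implied length. In complex IV the difference between Cox5a and Cox8a was 1.21 before and 1.28 after adjustment, since both transcripts are short (645 and 550 bases).

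Promoters were read for motifs of factors known to drive respiratory chain genes: GABPA of the ETS family, NRF1 and YY1. The RefSeq promoter table (GRCm38.p6) lists starts for 34 of the 42 genes, in 38 windows of 300 bases, of which 250 lie before the start. Sdhc, Cyc1, Uqcrb, Uqcrc2, Uqcrq, Cox4i1, Cox6c and Atp5a1 have no entry. Of the windows, 31.6% held the ETS word CCGGAAG on either strand, against 18.9% of the windows of all genes past the minimum and 8.86% of all 32851 windows in the table. The NRF1 word GCGCATGC stood in 18.4% of the member windows, 5.52% of those past the minimum and 2.71% of all. The YY1 word AAGATGGC stood in 13.2% of the member windows, 4.76% of those past the minimum and 2.75% of all. The member share is 5 windows of 4 genes. Atp5sl, whose product is not a subunit, has a pair of overlapping windows that both hold the word. The median GC content was 56.8% in the member windows and 61.3% in those past the minimum. A match is a description of letters and not a bound site.

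The words stood in genes over much of the range of folds. The highest genes, Atp5s and Cox5a, held none. At the lower end Sdha and Atp5b held none, while Cox8a held the ETS word and Atp5g2 the NRF1 word. Uqcrc2, Cyc1 and Atp5a1, with negative folds, have no window. The 12 genes with the ETS word had log2 folds of 0.07 to 1.21 with a median of 0.74, and the 22 without it had -0.04 to 1.30 with a median of 0.53. Genes with the NRF1 word numbered 7, with a median of 0.68, against 0.60 for the 27 without it. The 4 genes with the YY1 word lay lower, with a median of 0.49, against 0.68 for the 30 without it. Shown here are 4 promoters that hold a word, chosen among genes of high and of low fold. Each runs from 150 bases before the RefSeq start to 10 bases after it, read along the gene with the matched words in capitals. CTTCCGG is the ETS word on the opposite strand, and the capitals of Atp5g2 are the NRF1 word on both strands, overlapping.

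Uqcrh and Atp5e, with log2 folds of 1.12 and 1.20, and Cox8a and Atp5g2, with 0.07 and 0.15, read as follows.
Uqcrh, chr4:116075061-116075220, minus strand: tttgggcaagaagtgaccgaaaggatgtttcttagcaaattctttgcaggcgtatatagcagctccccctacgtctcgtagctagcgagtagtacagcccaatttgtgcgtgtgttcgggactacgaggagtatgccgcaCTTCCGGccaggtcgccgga
Atp5e, chr2:174464092-174464251, minus strand: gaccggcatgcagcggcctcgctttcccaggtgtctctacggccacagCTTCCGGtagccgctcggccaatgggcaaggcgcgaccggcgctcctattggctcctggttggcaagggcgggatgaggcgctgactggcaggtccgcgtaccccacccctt
Cox8a, chr19:7217607-7217766, minus strand: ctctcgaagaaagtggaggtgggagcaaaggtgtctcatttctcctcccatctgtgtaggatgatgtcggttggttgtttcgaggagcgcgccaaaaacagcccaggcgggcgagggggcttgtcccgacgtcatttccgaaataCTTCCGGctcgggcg
Atp5g2, chr15:102671038-102671197, minus strand: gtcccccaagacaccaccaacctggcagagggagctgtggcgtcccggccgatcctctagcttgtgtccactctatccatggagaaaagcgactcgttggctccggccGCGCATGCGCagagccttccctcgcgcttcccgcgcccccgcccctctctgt

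In Uqcrh the ETS word starts 10 bases before the start, in Atp5e 102 bases before it and in Cox8a 5 bases before it. Their length-adjusted log2 folds were 0.18 for Uqcrh, 0.15 for Atp5e and -0.87 for Cox8a. The part of the word in the folds was not tested. The genes lie at chromosome 4, 116066965 to 116075071 (Uqcrh), chromosome 2, 174461072 to 174464105 (Atp5e), chromosome 19, 7215153 to 7217616 (Cox8a) and chromosome 15, 102662864 to 102672352 (Atp5g2), all on the minus strand (GENCODE M21, GRCm38). The RefSeq start used for Atp5g2 lies inside the GENCODE span of the gene. Uqcrc2 lies at chromosome 7, 120635176 to 120659524, and Cox5a at chromosome 9, 57521274 to 57532426, both on the plus strand.

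Assembly factors insert the cofactors and join the subunits of the complexes. For this list and those that follow, the shares of all genes past 1.5-fold were 17.6% upward and 25.6% downward. Of 22 assembly factor genes of complex IV past the minimum, 12 were at least 1.5-fold higher, 3 lower and 7 between, with a median of 0.75 and a length-adjusted median of 0.08. Among them Cmc1, a factor for an early COX1 intermediate, had 1.36 and Coa7 1.04 (length-adjusted 0.77 for Cmc1 and 1.33 for Coa7), while Cox10, which makes the heme A precursor, had -1.18 (length-adjusted -1.11), with 740 counts with siBcat1 and 2178 with siControl. After length adjustment, 3 of the 22 complex IV factor genes were higher and 1 lower, where 12.8% and 14.1% of all genes were. For complex III, 2 of 5 were at least 1.5-fold higher and none lower (median 0.18, length-adjusted 0.09), led by Uqcc3 with 1.12 (length-adjusted 0.36). For complex II, 1 of 3 was higher and none lower (median 0.40, length-adjusted 0.43), and it was Sdhaf4 with 1.41 (length-adjusted 0.57). For complex V, 1 of 3 was higher and none lower (median 0.27, length-adjusted -0.0024), and it was Tmem70 with 0.68 (length-adjusted 0.34). None of the complex II, III and V factor genes passed 1.5-fold after adjustment.

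Cytochrome c and the carriers that feed the ATP synthase were higher in part. Of 10 genes past the minimum, 5 were at least 1.5-fold higher and none lower, with a median of 0.54 and a length-adjusted median of 0.16. Usmg5, a small subunit of the ATP synthase under another name, had 1.17, and Atpif1, the inhibitor of the synthase, had 1.03 (length-adjusted 0.05 for Usmg5 and 0.08 for Atpif1, and 0.62 for Atpif1 with the implied length). Cycs, the cytochrome c gene, had 0.71 and kept 0.85 after adjustment. Slc25a4, an ADP/ATP carrier, had 0.69 (length-adjusted 0.46, or 0.10 with the implied length).

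Set against other groups of short genes, the median log2 fold of 0.57 was below those of complex I subunits and of cytosolic ribosomal protein genes. Complex I subunits had a median of 0.79 over 35 genes, with 24 at least 1.5-fold higher and none lower. After length adjustment the median was -0.02, with 3 higher and 1 lower. Mitochondrial ribosomal protein genes had 0.50 over 78 genes, with 34 higher and none lower. After length adjustment the median was 0.05, with 14 higher and 2 lower. Cytosolic ribosomal protein genes had 1.08 over 79 genes, with 76 higher and none lower, and a length-adjusted median of 0.31 with 14 higher and none lower. Of all genes, 12.8% were higher and 14.1% lower after length adjustment.

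**Figure D4:**
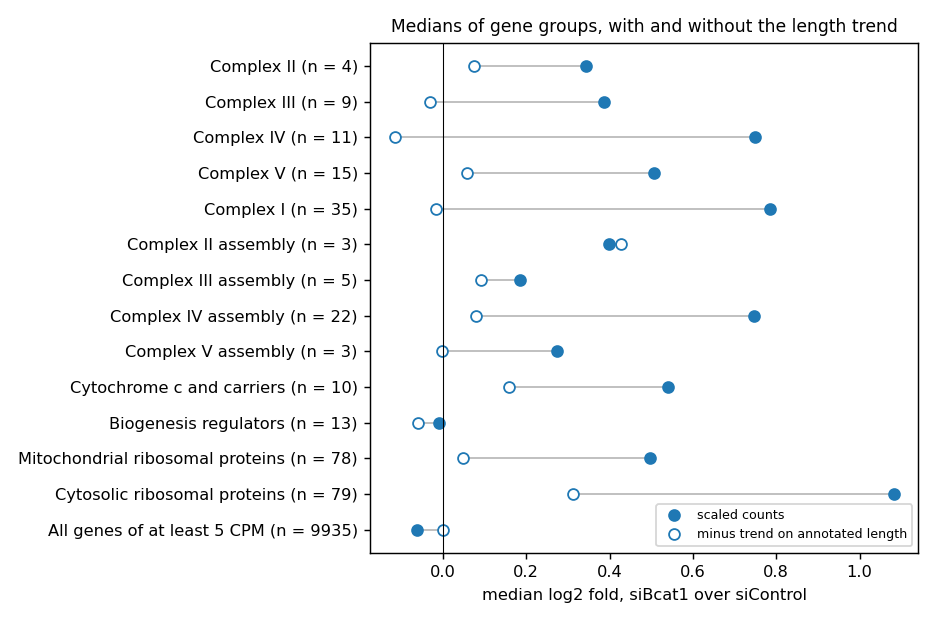
Median log2 fold of siBcat1 over siControl for each complex, for the groups named in the text and for all genes (filled circles), and the same medians with the length trend subtracted (open circles), with the number of genes past the minimum. The open circles of complexes II to V lie between -0.11 and 0.07, and that of the cytosolic ribosomal proteins lies at 0.31.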

How the data were processed

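Per the labels' protocols, a sequencing service built libraries from total RNA with a stranded mRNA kit. FastQC, Trimmomatic, HISAT2, StringTie and mm10 are named, without versions, per the submitters' processing notes. The sources used here do not give their settings, whether strand was used, or whether reads or read pairs were counted. The deposited gene counts are whole numbers, not normalized, per the file headers. The deposited TPM values were made by the authors and sum to 998120 in siBcat1 and 998462 in siControl.

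TMM factors were computed in edgeR 4.0.16 (R 4.3.3): 0.969 for siBcat1 and 1.03 for siControl. Transcript lengths (mean over a gene's GENCODE M21 transcripts, matched by RefSeq accession) were found for 9887 of 9935 genes and all 42 members. The implied length is the ratio of counts to TPM over both libraries, scaled to the median of the annotated lengths. The all-gene trend was a lowess fit of the log2 fold against log2 length (fraction 0.3, 3 iterations, statsmodels 0.14.6), and subtracting it removed 37.9% of the variance of the log2 folds. Fold, interval and trend calculations were tested on simulated data.

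The members and gene lists were chosen with earlier results of these data known. Full values are given for the 3 highest and 3 lowest members of each complex, members past 2-fold or below the minimum, and the isoform groups. Other lists give up to 4 genes of largest absolute log2 fold. The muscle and minor isoforms below the minimum were named after their values were seen. Alternatives were scaling by library totals, by upper quartile or with DESeq2 1.42.0, TPM with a pseudocount of 1 or 0.1, other minimums, a 2-fold threshold, GC content, another lowess fraction and the implied length. Near-identical copies could have shared reads with the members, and the table holds 0 rows for pseudogenes named after members.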

Additional observations from a re-analysis of the deposited data

How the results depend on the processing

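With 1 library per group, leaving out a replicate was not possible, and folding in pseudogene reads could not be run because the table lists no such rows. The 20 members at least 1.5-fold higher became 5 with TPM (pseudocount 1 or 0.1), where 2 were at least 1.5-fold lower, and 9 at 2-fold. Length adjustment left 1 higher and 4 lower, and length and GC adjustment 0 and 3. The median of 0.57 was 0.48 with library totals, 0.69 with upper-quartile factors, 0.0612 and 0.0615 with TPM (pseudocounts 1 and 0.1), -0.0050 length-adjusted and 0.063 with GC as well. Without adjustment it lay 0.53 to 0.63 above that of all genes throughout. A change of scaling moves both medians together, so across scalings this distance is no separate support. The length-adjusted median was -0.040 at a minimum of 20 CPM, -0.061 with the implied length and 0.063 with the GC trend also subtracted. The 1 member above the length trend became 0 at 20 CPM, with GC, at 2-fold and without Atp5s and Atp5sl, and the 4 below it became 0 at 2-fold. Leaving out Atp5s and Atp5sl was chosen after seeing the data. No paired analysis was possible because each group is 1 library.

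Members at least 1.5-fold higher whose sign turned were, length-adjusted, Uqcr11 (-0.19), Cox6b1 (-0.093), Cox7c (-0.20), Cox6a1 (-0.24), Cox7a2 (-0.18), Atp5o (-0.0050) and Atp5k (-0.43), and with length and GC adjusted, Uqcrb (-0.12), Uqcr11 (-0.059), Cox6b1 (-0.030), Cox7c (-0.28), Cox6a1 (-0.11), Cox7a2 (-0.094) and Atp5k (-0.30). The trends' own construction moves short genes down. Depth did not limit the members past the minimum, but Cox7a1 rests on 76 and 45 counts.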

Other observations

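Of 13 regulators of mitochondrial biogenesis past the minimum, 3 were at least 1.5-fold higher, where 17.6% of all genes were, and 3 lower, where 25.6% of all genes were, so both shares were near those of all genes. The other 7 lay between, with a median log2 fold of -0.01 and a length-adjusted median of -0.06. Tfam, which packages and transcribes mitochondrial DNA, had 4930 counts with siBcat1 and 3952 with siControl, a log2 fold of 0.69 and 1.09 after length adjustment. Twnk, the mitochondrial DNA helicase, had 1603 counts with siBcat1 and 1137 with siControl, a log2 fold of 0.87 (length-adjusted 0.92). Polg, the catalytic subunit of the mitochondrial DNA polymerase, had 2255 counts with siBcat1 and 6291 with siControl, a log2 fold of -1.10 that was -0.15 after adjustment by annotated length and -0.64 by implied length. Sirt1, a deacetylase that acts on the coactivator PGC-1alpha, had 272 counts with siBcat1 and 1857 with siControl. Its log2 fold of -2.40 (length-adjusted -2.07) was the largest difference in the list among genes past the minimum. Since Sirt1 stood at 2.69 CPM with siBcat1 and 14.1 CPM with siControl, it passed the minimum through the siControl library.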
